A study of Mus musculus with 42 samples.

Results

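The 10 genes described here are general pluripotency genes: Pou5f1, Sox2, Nanog, Sall4, Utf1, Dppa2, Dppa4, Dppa5a, L1td1 and Tdh. They were listed by name and matched by symbol to the gene identifiers of the files, and all 10 were among the 14296 genes measured. Poly-A RNA was sequenced from W9.5 mouse embryonic stem cells (ESCs) of the 129X1/SvJ strain, which formed embryoid bodies after withdrawal of LIF, the cytokine that holds mouse ESCs undifferentiated. Cultures were taken every 6 h from 0 h to 120 h, which gave 21 time points, each with 1 culture of replicate A and 1 of replicate B, and 42 libraries in all. The 0 h cultures were undifferentiated ESCs. Later groups differ from them in time, in the withdrawal of LIF and in the formation of embryoid bodies, which cannot be told apart. From 6 h on the groups differ by label only in time. There was no parallel culture kept in LIF, and all cultures come from a single cell line. Embryoid bodies are mixtures of cell types, so that fewer cells of a type and less RNA per cell cannot be told apart in these bulk libraries.

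Pluripotent cells are held in a state from which every lineage of the embryo can form by a small circuit of transcription factors. POU5F1 (OCT4) and SOX2 bind DNA side by side at joined octamer and Sox motifs, and NANOG binds many of the same enhancers. When ESCs leave the ground state they first pass through a formative, epiblast-like state that still expresses Pou5f1 and Sox2 but little Nanog, and Nanog is known to return in the posterior epiblast and in germ cell precursors. SALL4 is a zinc finger factor of the same circuit, UTF1 and the DPPA2 and DPPA4 pair are chromatin proteins, DPPA5A and L1TD1 bind RNA, and TDH is a mitochondrial enzyme on which mouse ESCs rely to break down threonine.

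All 10 genes are protein coding, and their positions are given on GRCm38. The core factors are Pou5f1 (ENSMUSG00000024406.10, chromosome 17, 35506018 to 35510772), Sox2 (ENSMUSG00000074637.4, chromosome 3, 34650405 to 34652461) and Nanog (ENSMUSG00000012396.6, chromosome 6, 122707489 to 122714633). Sall4 (ENSMUSG00000027547.11) lies on chromosome 2 from 168748332 to 168767943, and Utf1 (ENSMUSG00000047751.9) on chromosome 7 from 139943789 to 139945112. Dppa4 (ENSMUSG00000058550.8, 48283733 to 48294237) and Dppa2 (ENSMUSG00000072419.4, 48303908 to 48319723) are neighbours on chromosome 16, on the same strand and 9.67 kb apart. Dppa5a (ENSMUSG00000060461.5) lies on chromosome 9 from 78367052 to 78368177, L1td1 (ENSMUSG00000087166.3) on chromosome 4 from 98726734 to 98738480, and Tdh (ENSMUSG00000021953.8) on chromosome 14 from 63492347 to 63509092. Sox2 lies inside the noncoding gene Sox2ot on the same strand, while Pou5f1, Sall4 and Tdh each overlap 1 annotated gene on the other strand. The strand setting of the counting is not given in the sources used here. Other annotated genes had a stretch of 200 bases or more at least 90% identical to the transcript of Nanog (41 genes), Dppa5a (10), Dppa2 (6), Dppa4 (2), Sall4 (1), L1td1 (1) and Tdh (1), so that reads from these stretches could be divided between genes. Pseudogenes were 1 of them for Nanog, 8 for Dppa5a and all of them for Dppa2, Dppa4, L1td1 and Tdh. Of these genes the files measured 24 for Nanog, each alike over 200 to 227 of 2211 bases, and 1 each for Dppa5a (Pigp, 95.9% over 417 of 619 bases), Dppa4 (the pseudogene Gm14058, 99.4% over 532 of 1479 bases) and Sall4 (Gm14261, 100% over 293 of 5073 bases).

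The sequences upstream of 5 of the 10 genes are printed, which are all that matched by symbol in the RefSeq sequences on GRCm38.p6 used here. They include genes whose courses ran together (Pou5f1, Utf1, L1td1) and others whose courses ran apart from these (Sox2, Nanog). Each line runs 5′ to 3′ from 250 bases before the RefSeq start up to that start or up to the GENCODE start given above, whichever comes first, which leaves 236 bases for Pou5f1, 183 for Utf1, 230 for L1td1 and 250 for Sox2 and Nanog. The RefSeq start of Sox2 lies 410 bases before its GENCODE start, so its window ends there. Capitals mark matches, on either strand, to 4 motifs: the Sox site CATTGT, the octamer site ATGCAAA, the joined core TTGTNATGC, which overlaps both parts, and the GC box GGGCGG.
Pou5f1, chr17:35505782-35506017, plus strand: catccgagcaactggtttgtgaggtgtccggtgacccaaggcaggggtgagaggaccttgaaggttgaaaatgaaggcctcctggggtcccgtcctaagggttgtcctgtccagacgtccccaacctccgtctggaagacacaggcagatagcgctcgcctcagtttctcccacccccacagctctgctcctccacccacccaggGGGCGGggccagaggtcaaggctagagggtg
Utf1, chr7:139943606-139943788, plus strand: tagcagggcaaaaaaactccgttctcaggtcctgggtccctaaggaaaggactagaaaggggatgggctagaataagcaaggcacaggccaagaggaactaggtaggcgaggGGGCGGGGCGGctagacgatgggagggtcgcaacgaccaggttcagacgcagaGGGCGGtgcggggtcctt
L1td1, chr4:98726504-98726733, plus strand: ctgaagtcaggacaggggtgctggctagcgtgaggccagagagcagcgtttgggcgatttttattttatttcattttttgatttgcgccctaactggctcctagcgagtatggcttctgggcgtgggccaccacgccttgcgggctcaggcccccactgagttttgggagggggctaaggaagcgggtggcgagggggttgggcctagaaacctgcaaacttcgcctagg
Sox2, chr3:34649745-34649994, plus strand: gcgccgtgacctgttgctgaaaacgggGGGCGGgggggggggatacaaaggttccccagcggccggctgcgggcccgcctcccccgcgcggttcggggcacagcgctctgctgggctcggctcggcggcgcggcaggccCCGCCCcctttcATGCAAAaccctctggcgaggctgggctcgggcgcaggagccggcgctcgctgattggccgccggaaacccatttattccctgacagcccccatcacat
Nanog, chr6:122707239-122707488, plus strand: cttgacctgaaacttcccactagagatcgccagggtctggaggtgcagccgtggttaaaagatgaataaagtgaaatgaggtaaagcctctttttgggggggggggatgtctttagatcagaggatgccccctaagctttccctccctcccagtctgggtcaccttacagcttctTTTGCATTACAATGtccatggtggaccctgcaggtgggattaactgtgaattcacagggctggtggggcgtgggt
Nanog held the joined core, with its bases from 72 to 64 before the RefSeq start, together with both parts, on the minus strand. The joined core was present in 0.666% of the 27025 windows of 250 bases upstream of all genes with a sequence, the Sox site in 10.9% and the octamer site in 4.07%. Sox2 held the octamer site and 2 GC boxes, Utf1 held 3 GC boxes, of which 2 overlap by a base, and Pou5f1 held 1. L1td1 held no match to any of the 4 motifs in its window. GC boxes were found in 33.0% of all windows of 250 bases, in 30.9% when these were cut to 236 bases as for Pou5f1, and in 21.4% when cut to 183 bases as for Utf1. These matches describe letters, and binding was not measured.

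The 10 genes were measured far above the floor of the libraries. The libraries had between 10120972 and 51652434 reads counted on the genes of the files, and a count of 3 reads corresponds to between 0.057 and 0.316 CPM (reads scaled to library size). The lowest count of any of the 10 genes in any library was 395 reads, for Dppa2, and the highest was 59114, for Pou5f1. Expression is given as log2 CPM throughout, as a duplicate mean where neither replicate is given. At 96 h the duplicates were farther apart than at any other time point, with a median absolute difference over all genes of 0.407, against 0.0899 to 0.274 elsewhere. The comparisons that use 96 h are therefore given with both of its libraries and with either left out. Correlations between courses and the nearest courses include the 96 h libraries and were not recomputed without them. Because these libraries also widen the spread shared by all comparisons, the counts of genes called in the other comparisons are given without them too.

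Levels were compared between genes only per length, as CPM per kb of exon. At 0 h, Dppa5a stood highest, with 2194 for replicate A and 2490 for replicate B, followed by Pou5f1 (419 and 482), Sox2 (315 and 334), Utf1 (256 and 289) and Nanog (197 and 225). L1td1 (177 and 160) and Tdh (153 and 169) came next, and their replicates overlapped. Dppa4 (85.9 and 87.3), Sall4 (35.7 and 32.8) and Dppa2 (27.6 and 27.0) were lowest. The duplicates of neighbours in this order did not overlap, other than those of L1td1 and Tdh. At 120 h, Dppa5a was still highest at 870 CPM per kb in the mean, while Pou5f1 (178 and 171), Sox2 (175 and 165) and Nanog (157 and 151) had come close together, the first 2 of them overlapping. The summed level of the 10 genes was 5075 CPM in A and 5514 CPM in B at 0 h, 6403 and 6209 CPM at 12 h, 2082 and 2193 CPM at 102 h, and 2534 and 2501 CPM at 120 h.

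**Figure D1:**
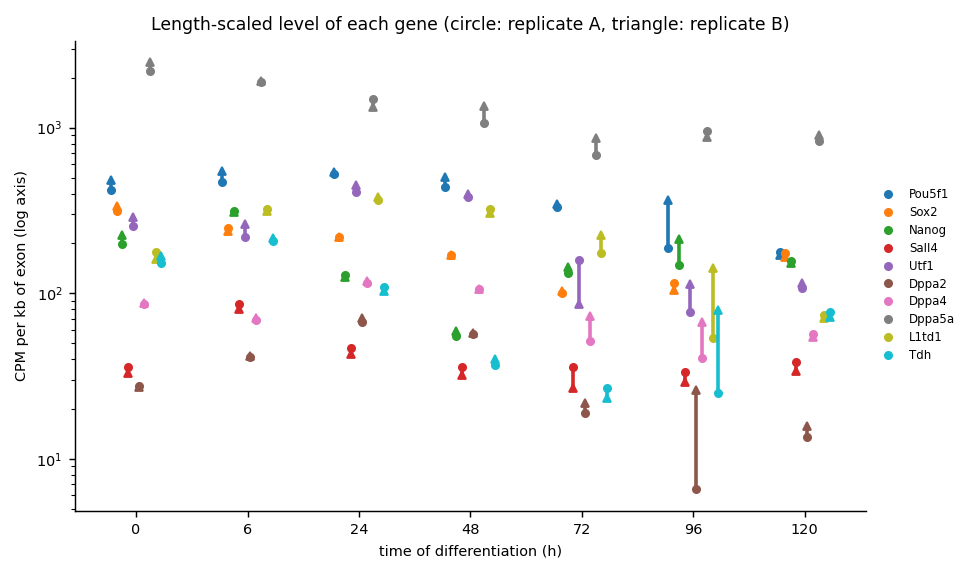
Level per kb of exon (log axis) of each of the 10 genes at 7 of the time points, as circles for replicate A and triangles for replicate B joined by a bar. Dppa5a was the highest at every time shown, from 2342 CPM per kb in the mean at 0 h to 870 at 120 h, and the bars were longest at 96 h for Dppa2, Tdh and L1td1.

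All 10 genes varied over the course. The moderated F test of limma over the 20 contrasts with 0 h passed the adjusted p threshold of 0.0001 for 10 of 10 genes, against 74.6% of all genes. The adjusted p was smallest for Sox2 (4.88e-16) and Nanog (2.94e-16) and largest for Dppa5a (4.98e-08). By the time of their highest level the genes fell into 3 groups, which describe the courses and were not tested. Sox2 and Dppa5a were highest at 0 h. Sall4, Nanog and Tdh were highest at 6 h. Pou5f1, Utf1, Dppa2, L1td1 and Dppa4 were highest between 12 h and 42 h.

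**Figure D2:**
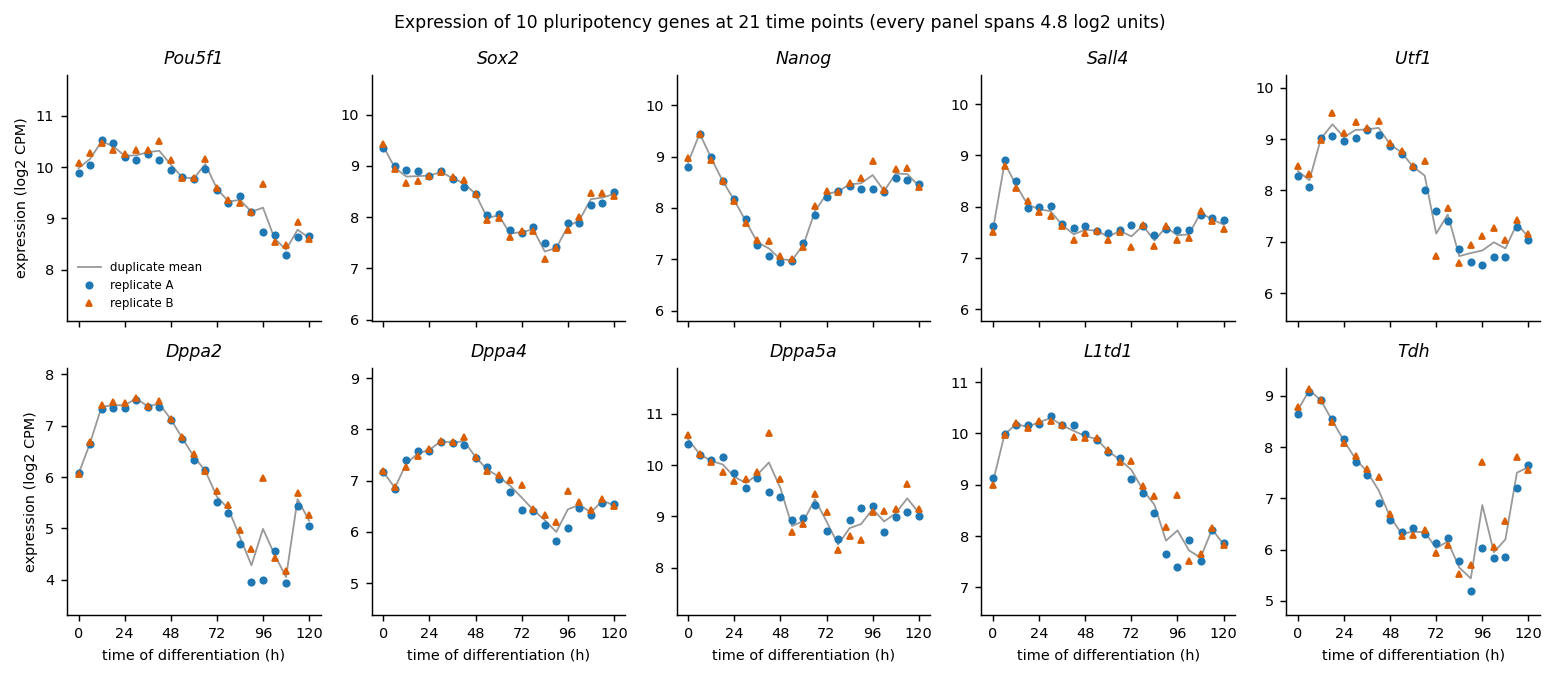
Expression in log2 CPM against time in h, in a panel for each of the 10 genes that spans 4.8 log2 units, with circles for replicate A, triangles for replicate B and a line through the duplicate means. Nanog was lowest at 54 h (6.98) and high again at 120 h (8.43), while Dppa2 and L1td1 were highest at 30 h and lowest at 108 h.

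Pou5f1, the octamer-binding factor of the circuit, was among the latest of the 10 genes to leave its plateau. It was at 9.88 in A and 10.08 in B at 0 h, 10.52 and 10.48 at 12 h, 10.19 and 10.25 at 24 h, and 9.95 and 10.14 at 48 h. Later values were 9.55 and 9.60 at 72 h, 8.73 and 9.68 at 96 h, 8.29 and 8.49 at 108 h, and 8.65 and 8.59 at 120 h. Up to 48 h the libraries lay between 9.88 and 10.52, and from 102 h every library was below every library of the first 2 days. The lowest mean, at 108 h, was 4.31-fold below the highest, at 12 h. The level first dropped to 1 log2 unit under its highest value at 72.8 h in A and 74.1 h in B. These times were interpolated linearly between samples, from the highest value of each replicate, at 12 h in A and 42 h in B. Pou5f1 was the latest of the 10 genes in A and the latest but L1td1 in B.

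Sox2, the HMG-box partner of POU5F1, started down at once and partly came back. It was at 9.34 in A and 9.43 in B at 0 h, 8.99 and 8.94 at 6 h, 8.81 and 8.80 at 24 h, and 8.45 and 8.46 at 48 h. After that it was at 7.69 and 7.73 at 72 h, 7.49 and 7.18 at 84 h, 7.42 and 7.39 at 90 h, 8.23 and 8.47 at 108 h, and 8.49 and 8.41 at 120 h. Its duplicates had a pooled SD of 0.0975 log2 units across the course, the lowest of the 10 genes, and without the 96 h libraries that of Nanog was lower (0.0918, against 0.0975). From 84 h to 120 h it regained 1.12 log2 units, 54.4% of its range. Its level at 120 h differed from that at 48 h by -0.0048 (SE 0.10), and by 0.31 under quantile normalization (adjusted p = 0.0199), where it was not called either.

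Nanog, the homeodomain factor, had an early maximum, a minimum near the middle of the course and a high level again at the end. It was at 8.79 in A and 8.98 in B at 0 h and at 9.45 and 9.44 at 6 h. It then passed 8.17 and 8.13 at 24 h, 7.28 and 7.37 at 36 h, and 6.95 and 7.06 at 48 h. The level was lowest at 48 h in A and 54 h in B, and it was at 7.86 and 8.03 at 66 h, 8.22 and 8.33 at 72 h, 8.59 and 8.76 at 108 h, and 8.46 and 8.41 at 120 h. Low and high phases did not overlap: each library from 36 h to 60 h was below each library from 66 h on. The drop from the 6 h maximum reached 1 log2 unit by 19.1 h in A and 19.3 h in B, interpolated between samples. This was the earliest of the 10 genes.

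Sall4, the zinc finger factor, was highest in the first hours. It was at 7.63 in A and 7.5 in B at 0 h, 8.90 and 8.79 at 6 h, 8.49 and 8.36 at 12 h, and 8.0 and 7.90 at 24 h. From 36 h to 120 h its libraries ranged around the 0 h level, with a lowest mean of 7.34 at 84 h and values of 7.73 and 7.56 at 120 h. Its largest mean was 2.84-fold its lowest, the narrowest range of the 10 genes. Sampling every 24 h would have shown a range of 0.53 log2 units for Sall4, against 1.5 at the 6 h interval, since the 6 h and 12 h samples hold its peak.

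Utf1, a chromatin-bound factor of undifferentiated cells, was at 8.29 in A and 8.47 in B at 0 h and at 9.07 and 9.51 at 18 h. Its plateau lasted to 42 h, with 9.08 and 9.36, and was followed by 8.86 and 8.93 at 48 h, 7.60 and 6.72 at 72 h, 6.85 and 6.58 at 84 h, and 7.03 and 7.15 at 120 h. The duplicates at 72 h differed by 0.87, the most for this gene, with B below A, although B was above A at 18 of the 21 time points.

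Dppa2 and Dppa4, neighbouring genes whose proteins act as a pair on chromatin, were both highest within the first 2 days and lowest late in the course, and differed in depth and in single steps. Dppa2 was at 6.08 in A and 6.05 in B at 0 h, 7.33 and 7.41 at 12 h, 7.5 and 7.55 at 30 h, 7.12 and 7.14 at 48 h, and 5.52 and 5.72 at 72 h. It then was at 4.0 and 5.98 at 96 h, 3.94 and 4.17 at 108 h, 5.44 and 5.69 at 114 h, and 5.04 and 5.26 at 120 h. Its highest mean was 11.1-fold its lowest. Dppa4 was at 7.16 and 7.18 at 0 h, 7.69 and 7.85 at 42 h, 6.42 and 6.92 at 72 h, 5.82 and 6.19 at 90 h, and 6.55 and 6.5 at 120 h, a range of 3.41-fold. From 0 h to 6 h Dppa2 changed by 0.58 in A and 0.63 in B and Dppa4 by -0.32 and -0.30, and the lowest mean came at 108 h for Dppa2 and at 90 h for Dppa4. Before 96 h, the Dppa2 duplicates differed by at most 0.63, at 90 h.

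Dppa5a, a KH-domain RNA-binding protein gene, was at 10.41 in A and 10.59 in B at 0 h, 9.85 and 9.69 at 24 h, 8.93 and 8.70 at 54 h, 8.56 and 8.34 at 78 h, and 9.01 and 9.14 at 120 h. At 42 h its duplicates were at 9.48 and 10.62, the largest gap of any of the 10 genes away from 96 h, and the highest value of replicate B. Over all genes the absolute difference had a median of 0.274 at that time.

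L1td1, a gene derived from the first open reading frame of a LINE retrotransposon, was at 9.14 in A and 8.99 in B at 0 h, 9.99 and 9.97 at 6 h, 10.34 and 10.25 at 30 h, 9.99 and 9.91 at 48 h, and 9.11 and 9.47 at 72 h. It ended at 7.51 and 7.65 at 108 h and 7.87 and 7.82 at 120 h. Of the 10 genes it regained the smallest share of its log2 range from its minimum, 9.77%. In both replicates it was above the 0 h level up to 66 h.

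Tdh, which encodes threonine dehydrogenase, had the widest range, 12.7-fold. It was at 8.65 in A and 8.79 in B at 0 h, 9.08 and 9.13 at 6 h, 8.16 and 8.08 at 24 h, 6.58 and 6.70 at 48 h, and 6.12 and 5.93 at 72 h. Its lowest mean was 5.44 at 90 h, from 5.19 and 5.70. It was then at 6.03 and 7.70 at 96 h, 5.83 and 6.06 at 102 h, 5.86 and 6.55 at 108 h, 7.20 and 7.80 at 114 h, and 7.65 and 7.56 at 120 h. In log2 units it thus regained 59.1% of its range, close to the 58.9% of Nanog and the 54.4% of Sox2, while the other 7 genes regained 9.77% to 31.7%. On the CPM scale, its level at 120 h was 35.4% of its highest, against 49.6% for Nanog and 52.4% for Sox2.

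**Figure D3:**
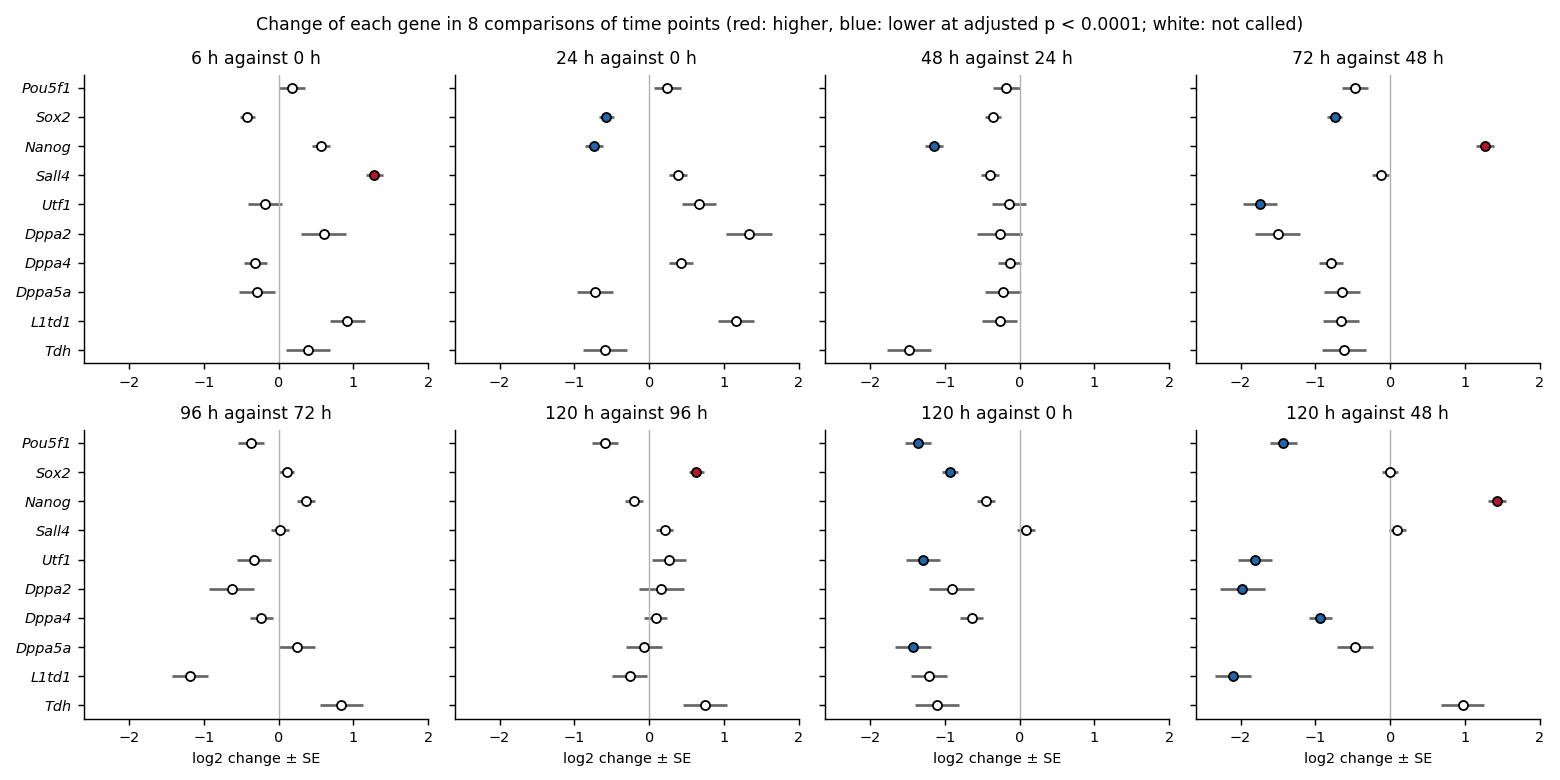
Log2 change with its standard error (x axis) of each of the 10 genes (y axis) in 8 comparisons of time points, red where higher and blue where lower at an adjusted p under 0.0001. Nanog was lower in 48 h against 24 h (-1.15) and higher in 72 h against 48 h (1.27), and 4 genes were lower in 120 h against 0 h.

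The first 6 h after LIF withdrawal asked which genes responded at once. Sall4 rose by 1.28 log2 units (SE 0.116 and adjusted p = 5.69e-10, limma), a 2.43-fold change, and was the only one of the 10 genes called, where 11.8% of all genes were called higher and 14.5% lower. L1td1 (0.92, SE 0.24, adjusted p = 0.00174), Nanog (0.56, SE 0.12, adjusted p = 0.000301) and Sox2 (-0.42, SE 0.10, adjusted p = 0.00105) did not pass. Their duplicates at 0 h and 6 h did not overlap, but neither did those of Sall4, Dppa2, Dppa4, Dppa5a and Tdh. Only those of Pou5f1 and Utf1 overlapped, and the share over all genes was not computed. With both 96 h libraries left out, L1td1 (adjusted p = 3.05e-06) and Nanog (adjusted p = 1.52e-05) were called as well, so that 3 of 10 genes were called, as were 30.8% of all genes in that fit. Quantile normalization and scaling by counted reads called Sox2 lower (-0.77 and -0.64), and the value of Pou5f1, 0.18, turned to -0.15 and -0.04 under them.

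The comparison of 24 h with 0 h covers the first day. Nanog fell by 0.74 log2 units (SE 0.12, adjusted p = 1.26e-05) and Sox2 fell by 0.57 (SE 0.10, adjusted p = 3.65e-05), while 9.90% of all genes were called higher and 12.8% lower. Dppa2 (1.34, SE 0.30, adjusted p = 0.000519) and L1td1 (1.16, SE 0.24, adjusted p = 0.000184) had larger differences that did not pass, and both were called with the 96 h libraries left out, at adjusted p = 4.39e-09 and 1.03e-07, which made 4 of the 10 genes beside 27.2% of all genes. Of the rest, Dppa5a was at -0.73 and Utf1 at 0.66, each with a standard error above 0.2. The Sox2 call was lost when any one of the 4 libraries was left out (adjusted p from 0.000339 to 0.00151). The Nanog call was lost without 24 h A, 24 h B or 0 h B (adjusted p from 0.000243 to 0.00106).

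Over the second day, from 24 h to 48 h, Nanog fell by a further 1.15 (SE 0.12, adjusted p = 2.85e-08), and all 10 genes had negative values, of which this one passed. Of all genes, 5.27% were called higher and 3.70% lower. Tdh had the largest difference, -1.48 (SE 0.29, adjusted p = 0.000259), which passed with the 96 h libraries left out (adjusted p = 4.17e-07), where 2 of the 10 genes and 11.2% of all genes were called. The values of the other 8 genes lay between -0.40 for Sall4 and -0.14 for Dppa4.

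Between 48 h and 72 h the core factors moved apart. Nanog rose by 1.27 (SE 0.12, adjusted p = 8.92e-09), Sox2 fell by 0.74 (SE 0.10, adjusted p = 2.62e-06), and Utf1 fell by 1.74 (SE 0.23, adjusted p = 1.15e-06). Of all genes, 5.60% were called higher and 3.78% lower, and of the 10 genes 1 and 2. Dppa2 (-1.51) and Dppa4 (-0.79) did not pass, at adjusted p = 0.000278 and 0.000216, and passed with both 96 h libraries left out, which raised the genes called to 5 of 10, beside 13.5% of all genes. Sox2 was not called under quantile normalization (-0.49), under scaling by counted reads (-0.60), or without 48 h A or 48 h B. Utf1 was at -1.30 without 72 h B (adjusted p = 0.000194), and Dppa4 was called in that case at -1.04.

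For 96 h against 72 h none of the 10 genes was called in limma, while 3 had an adjusted p under 0.05, beside 28.9% of all genes. Voom precision weights also called none, and 2.39% of all genes were called higher and 1.0% lower. L1td1 had the largest difference, -1.18 (SE 0.24, adjusted p = 0.000575). Which library stood for 96 h decided the calls: without 96 h B, L1td1 (-1.89, adjusted p = 1.49e-08) and Dppa2 (-1.62, adjusted p = 8.17e-08) were called lower, and without 96 h A, Tdh was called higher (1.67, adjusted p = 3.2e-06). Without 96 h A the values of Pou5f1 (0.11), Dppa2 (0.36) and Dppa4 (0.14) were positive, where with both libraries they were -0.37, -0.63 and -0.23.

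For 120 h against 96 h only Sox2 was called, higher by 0.63 (SE 0.10, adjusted p = 8.5e-05), with 1.25% of all genes called higher and 0.686% lower. This call was lost when any one of the 4 libraries was left out (adjusted p from 0.000135 to 0.00396), under quantile normalization (0.56) and under scaling by counted reads (0.61). Without 96 h A, Pou5f1 was called lower (-1.07, adjusted p = 4.97e-06). Without 96 h B, Dppa2 (1.15) and Tdh (1.58) were called higher, so that Dppa2 was at -0.83 when compared with 96 h B alone and at 1.15 when compared with 96 h A alone.

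The whole course, 120 h against 0 h, left 4 genes lower: Dppa5a fell by 1.43 (SE 0.24, adjusted p = 1.4e-05), Pou5f1 fell by 1.36 (SE 0.18, adjusted p = 2.55e-07), Utf1 fell by 1.29 (SE 0.23, adjusted p = 2.68e-05) and Sox2 fell by 0.93 (SE 0.10, adjusted p = 1.65e-08). Of all genes 10.1% were called lower and 12.9% higher. The median change of the 10 genes was -1.02, beside -0.02 over all genes. L1td1 was at -1.22 with an adjusted p of 0.000101, at the threshold itself. Sall4 was the single gene with a positive value, 0.08 (SE 0.12), which was -0.0035 without 120 h A. Nanog was at -0.45 (SE 0.12, adjusted p = 0.00272) and not called, and it was called lower under quantile normalization (-0.54, adjusted p = 7.28e-05). Leaving out the 96 h libraries added Dppa2 (-0.91), Dppa4 (-0.64), L1td1 and Tdh (-1.11) to the calls, 8 of the 10 genes in all, beside 26.5% of all genes in that fit. Utf1 and Dppa5a were not called when any one of the 4 libraries was left out (adjusted p from 0.000162 to 0.00112).

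The comparison of 120 h with 48 h, which shares its 120 h libraries with the previous comparison, set the late course against the end of the second day. Here 5 genes were lower: L1td1 fell by 2.11 (SE 0.24, adjusted p = 2.74e-08), Dppa2 fell by 1.98 (SE 0.30, adjusted p = 3.52e-06), Utf1 fell by 1.80 (SE 0.23, adjusted p = 1.65e-07), Pou5f1 fell by 1.43 (SE 0.18, adjusted p = 1.22e-07) and Dppa4 fell by 0.94 (SE 0.16, adjusted p = 1.14e-05). Nanog rose by 1.43 (SE 0.12, adjusted p = 1.5e-10). Of all genes 14.2% were called higher and 11% lower. Tdh, at 0.97 (SE 0.29, adjusted p = 0.00633), was called with the 96 h libraries left out (adjusted p = 7.04e-05), which made 7 of the 10 genes, beside 29.3% of all genes. Dppa4 was not called without any one of the 4 libraries (adjusted p from 0.000222 to 0.000395) or under quantile normalization (-0.70), and Dppa2 was not called without 120 h A, 48 h A or 48 h B (adjusted p from 0.000108 to 0.000207).

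Over the 20 consecutive steps of 6 h, a single step of the 10 genes was called, the rise of Sall4 to 6 h, while 1.77% of all gene steps in the files were called. With both 96 h libraries left out 5 were called, beside 2.55% of all gene steps in that fit, the additional ones being Nanog and L1td1 at 6 h and the steps of Dppa2 (1.52, SE 0.13, adjusted p = 9.96e-09) and Tdh (1.30, SE 0.19, adjusted p = 1.18e-05) from 108 h to 114 h. Both replicates had this late step: Dppa2 changed by 1.51 in A and 1.53 in B, and Tdh by 1.34 and 1.26. L1td1 (0.60 and 0.50), Utf1 (0.58 and 0.39) and Pou5f1 (0.34 and 0.43) had values of the same sign in that step, and 8 of the 10 genes were higher at 114 h than at 108 h in both replicates, as were 38.9% of all genes. From 114 h to 120 h, in turn, 7 of the 10 genes were lower in both replicates and none was higher in both, where 37.2% of all genes were lower and 33.1% higher in both. With 96 h A alone left out, the steps into and out of 96 h B were 1.71 and -1.49 for Dppa2. They were 2.25 and -1.75 for Tdh, and the step out was -1.07 for Pou5f1 and -1.09 for L1td1.

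At 96 h replicate B was above A for 7 of the 10 genes. This count was not particular to 96 h: it was also 7 at 0 h, 72 h and 90 h, and 10 at 108 h. The gaps were largest at 96 h, with a median absolute difference of the 10 genes of 0.648, against 0.0456 to 0.351 at the other time points. Replicate B was above A by 1.98 for Dppa2, 1.66 for Tdh, 1.41 for L1td1, 0.96 for Pou5f1, 0.73 for Dppa4, 0.56 for Utf1 and 0.54 for Nanog. Sox2 (-0.14), Sall4 (-0.20) and Dppa5a (-0.12) differed little. Among the 11783 genes whose mean reached 1 log2 CPM, the gap of Dppa2 was at percentile 99.4. That of Tdh was at 98.6, that of L1td1 at 97.3 and that of Sox2 at 20.7. Other markers differed between the 96 h duplicates as well, not all in the same direction. The summed CPM of 5 primitive streak markers was 103 in 96 h A and 480 in 96 h B, and that of 14 naive factors was 402 and 789. Primordial germ cell markers summed to 77.6 and 131 CPM, of which Tfap2c (5.10 in A and 6.33 in B, log2 CPM) made most of the gap, while Dazl was at 1.75 and 0.54 and Ddx4 at 4.78 and 4.79. Primitive endoderm markers summed to 34.8 and 53.3 CPM. Gata4, Gata6, Sox7, Foxa2 and Pdgfra were higher in B, while Dab2 (4.13 in A and 3.65 in B), Cubn and Amn were lower. Trophoblast markers summed to 19 and 34.9 CPM, with Cdx2, Hand1 and Gata3 higher in B and Krt7 (3.31 and 3.16) lower. Neuroectoderm markers were at 129 and 136 CPM, of which Nes (6.69 in A and 6.90 in B) made most. Sox1 (3.62 and 1.96), Sox3 (3.63 and 3.56), Pax6 and Pax3 were lower in B. Fibroblast markers were at 31.6 and 20.2 CPM, and formative and primed epiblast genes at 1069 and 862 CPM. Their part in the difference between the duplicates was not tested. Counted reads were 30690825 for 96 h A and 25524270 for 96 h B.

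**Figure D4:**
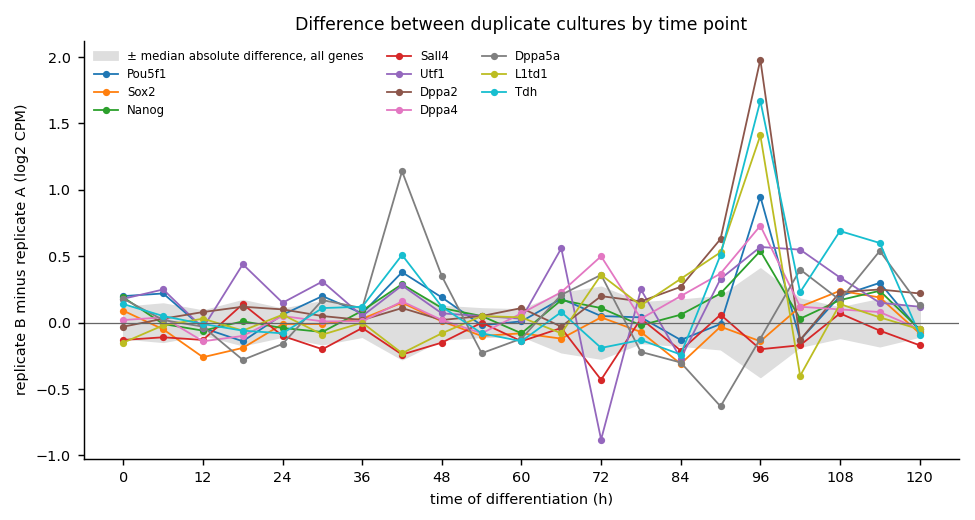
Replicate B minus replicate A in log2 CPM (y axis) against time in h for each of the 10 genes, with a grey band of plus and minus the median absolute difference over all genes. Away from 96 h, where Dppa2 was at 1.98, the points beyond 0.8 were Dppa5a at 42 h (1.14) and Utf1 at 72 h (-0.87).

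Likeness of the courses was described by Pearson's r of the duplicate means over the 21 time points, which share libraries and are not independent. Of the 45 pairs of the 10 genes, 40 had a positive r, and 7 were above 0.9. These 7 were all among Pou5f1, Utf1, Dppa2, Dppa4 and L1td1, led by Utf1 with Dppa2 (0.965) and Utf1 with Dppa4 (0.962). Dppa2 and Dppa4 had an r of 0.945. The 5 negative pairs were those of Nanog with the same 5 genes, from -0.27 with Pou5f1 to -0.50 with Dppa4. Sox2 was most like Tdh (0.891) and Dppa5a (0.876), and Pou5f1 with Sox2, whose proteins bind together, had an r of 0.490. Within replicate A and within replicate B, each of these 5 Nanog pairs was negative too.

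Ratios of levels per kb show the same separation in the core circuit. The ratio of Sox2 to Pou5f1 was 0.752 in A and 0.694 in B at 0 h, 0.388 and 0.339 at 48 h, 0.300 and 0.299 at 72 h, and 0.980 and 0.966 at 120 h. The ratio of Nanog to Pou5f1 was 0.471 and 0.468 at 0 h, 0.126 and 0.118 at 48 h, and 0.881 and 0.884 at 120 h. At 108 h it was highest, 1.22 in the mean, the only time point at which the means of Nanog and Sox2 (1.06) exceeded Pou5f1. Dppa2 over Dppa4 was 0.321 and 0.309 at 0 h, highest at 12 h (0.694 in the mean) and lowest at 108 h (0.135). None of the 3 pairs kept a fixed proportion.

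**Figure D5:**
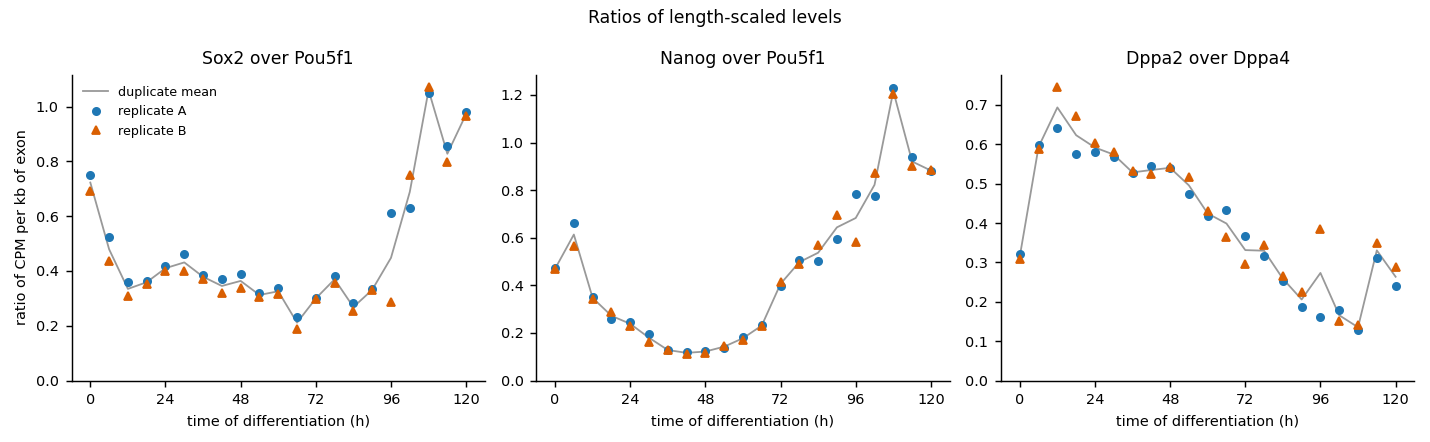
Ratio of CPM per kb of exon (y axis, from 0) against time in h for Sox2 over Pou5f1, Nanog over Pou5f1 and Dppa2 over Dppa4, with circles for replicate A, triangles for replicate B and a line for the mean. Nanog over Pou5f1 was lowest at 42 h (0.116) and highest at 108 h (1.22).

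Among the 11783 genes whose mean reached 1 log2 CPM, the 3 nearest courses were found for each of the 10 genes. Nanog was nearest to Cdc42ep4 (r = 0.947), Dsg2 (0.932) and Mme (0.923), and 17 genes exceeded an r of 0.9 with it. Sall4 was nearest to Nrg1 (0.946), Brd9 (0.941) and Trim8 (0.936), and 12 genes exceeded 0.9. Dppa2 was nearest to Hirip3 (0.985), Prmt5 (0.985) and Immt (0.984) among 572 genes above 0.9, and Utf1 to Prmt5 (0.983), Nelfa (0.976) and Nol9 (0.975) among 418. Above 0.9 there were 359 genes for L1td1, 299 for Dppa4, 170 for Tdh, 166 for Pou5f1, 48 for Sox2 and 27 for Dppa5a. For L1td1 the nearest were Atcay (0.980), Shmt1 (0.977) and Foxd3 (0.976), for Dppa4 Cnot10 (0.977), Smpdl3b (0.967) and Usp39 (0.966), and for Pou5f1 Dpf1 (0.961), Akr1b3 (0.959) and Aven (0.958). Sox2 was nearest to Gpa33 (0.971), AU018091 (0.968) and Spp1 (0.962), Dppa5a to Uqcrc1 (0.936), Gabarapl2 (0.933) and Ooep (0.931), and Tdh to Adgre5 (0.973), Mir124a-1hg (0.972) and Zfp42 (0.971). None of the 10 genes was among the 3 nearest of another.

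Genes around the circuit were counted from fixed lists, with the same test, and their counts stand beside 9.90% of all genes called higher and 12.8% lower at 24 h, and 12.9% and 10.1% at 120 h. With both 96 h libraries left out, the counts at 120 h were unchanged in every list, and at 24 h they rose to 5 lower naive factors, 2 higher one-carbon enzymes, 2 lower primitive endoderm markers, 3 higher neuroectoderm markers and 1 higher trophoblast marker. Of 14 factors of naive pluripotency, 2 were higher and 3 lower at 24 h, and 1 was higher and 7 lower at 120 h, both against 0 h, with medians of -0.71 and -0.99. At 120 h Dppa3 was the one higher (3.12), and Tcl1 (-2.91), Gbx2 (-2.77) and Klf4 (-2.48) had the largest negative changes. The summed level of this list was 2827 CPM in A and 2834 CPM in B at 0 h, 701 and 698 CPM at 48 h, 364 and 311 CPM at 72 h, and 1116 and 1114 CPM at 120 h, so it was low near 72 h and higher at 120 h in both replicates. Of 9 formative and primed epiblast genes, 8 were higher at 24 h and 7 at 120 h, where 1, Foxd3, was lower (-2.64), and Fgf5 (7.15), Zic2 (5.59) and Sall2 (3.66) had the largest positive changes. This list was highest at 48 h, at 3319 CPM in A and 3181 in B, when Nanog was near its lowest level.

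Of 11 measured partners and repressors of the core factors, 5 were higher at 24 h, and 3 were higher and 2 lower at 120 h. Nr2f2, a repressor of Pou5f1, had at most 3 reads in both libraries of 0 h and was at 4.82 in A and 4.77 in B at 120 h. Nr6a1, which also represses Pou5f1, was higher by 1.85, Lin28a was higher by 1.02, and Mybl2 was lower by 1.12. Of 3 measured genes known to depend on DPPA2 and DPPA4, Prex2 was higher at 24 h (1.43) and none passed at 120 h. Of 10 glycine cleavage and one-carbon enzymes, which handle glycine and one-carbon units downstream of threonine breakdown, 1 was higher and 1 lower at 24 h, and 6 were lower at 120 h, with Shmt2 (-1.82), Gcat (-1.17), Mthfd2 (-1.03) and Mthfd1l (-0.80) leading. Their summed level was highest at 42 h, when Tdh was already at 6.90 in A and 7.41 in B.

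Markers of other cell types were at low levels in the 0 h libraries. The 5 measured primitive streak markers summed to 14.9 and 14 CPM at 0 h and to 69.6 and 59.7 CPM at 120 h, with 3 higher at 120 h, T, Evx1 and Mixl1. Primitive endoderm markers (8 measured, 4 higher at 120 h: Foxa2, Dab2, Cubn and Gata4) summed to 10.2 and 11.3 CPM and then 50.1 and 51.3 CPM, and trophoblast markers (4 measured, all 4 higher: Gata3, Cdx2, Krt7 and Hand1) to 2.58 and 2.61 CPM and then 53.0 and 61.0 CPM. All 5 measured neuroectoderm markers were higher at 120 h, with sums of 18.7 and 15.4 CPM at 0 h and 211 and 197 CPM at 120 h. The largest changes were those of Pax3, from at most 3 reads in each 0 h library to 2.14 in A and 2.07 in B at 120 h, Pax6, likewise to 0.98 and 0.94, Sox1 (3.79) and Nes (3.53). Cells of the neural lineage are known to express Sox2. Of 5 primordial germ cell markers 1, Tfap2c, was higher at 120 h (2.54), and their sums were 46.9 and 42.9 CPM and then 127 and 131 CPM. Fibroblast markers, listed because feeder cells can enter ESC cultures, summed to 28.3 and 30.9 CPM at 0 h, 11.9 and 11.3 CPM at 24 h, and 104 and 93.7 CPM at 120 h, with 3 of 5 higher (Col1a2, Postn and Col1a1) and 1 lower (Thy1) at 120 h. Foxa2, Evx1, Gsc, Cdx2, Col1a2 and Postn had at most 3 reads in each 0 h library. The part of these markers in the late levels of Nanog, Sox2 and Tdh was not tested.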

How the data were processed

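Stranded poly-A libraries of 42 mouse cultures were sequenced as paired ends. Per the study's methods, the authors removed adaptors and poor bases with Trim Galore, mapped the pairs to mm10 with TopHat2 and obtained counts for GENCODE vM2 genes from HTSeq. The authors kept genes above 1 CPM in 2 or more samples, normalized with edgeR and applied voom; versions are not given in the sources used here. The deposited values are log2 CPM with the voom offset of 0.5 reads. Reads were recovered from them (100.0% of values within 0.001 of a whole number), giving 10120972 to 51652434 counted reads per library (median 29692082). Recovered reads served for depth, read counts of genes, the voom weights, the pseudocount of 1 CPM and 2 scalings, and not for the main fit.

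Genes were matched to GENCODE vM21 on GRCm38 (14177 of 14296). limma 3.58.1 (R 4.3.3; lmFit, eBayes with trend) was fitted to the deposited log2 values, with a factor of 21 time points over all 42 libraries and 21 residual degrees of freedom. Benjamini-Hochberg adjustment was within each comparison over all genes, and genes were called at adjusted p under 0.0001. The script was tested on simulated data. All 10 genes were named. For each of them the 3 nearest courses were named, and for each list up to 4 called genes with the largest change at 120 h. The genes and lists were chosen with earlier results of these data known. Duplicates are separate cultures of a single line. Alternatives were voom weights, 3 scalings, a pseudocount of 1 CPM, a minimum mean of 0 log2 CPM, a threshold of 0.05, adjustment over the 8 comparisons together, a replicate block and leaving out each library. Leaving out both 96 h libraries was added after seeing the data. Transcripts were compared with BLAST, and figures and summaries used Python 3.11.15.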

Additional observations from a re-analysis of the deposited data

How the results depend on the processing

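Of 1172 recomputed values, 1057 stayed the same. Most were changes of single genes, which kept their direction and their side of the threshold. The rest were counts of all genes called that moved by at most 1.5 times. Counts of all genes that moved more are not among the 1172. Of the changes of single genes, 34 lost the call, 58 gained it and 23 changed sign, none of the last among called values. Of the gains, 27 came from the looser threshold of 0.05. That setting reuses the same changes, so none of its 80 values could lose a call or change sign. The adjustment over the 8 comparisons together also reuses them, so that no sign could change there. The numbers of the 10 genes called that moved by more than 1.5 times are these, and smaller moves are left out. At adjusted p under 0.05, 4 genes were called for 6 h against 0 h (1 in the report; 58.0% of all genes), 8 for 24 h against 0 h (2; 55.6%), 4 for 48 h against 24 h (1; 29.9%), 8 for 72 h against 48 h (3; 40.9%), 3 for 96 h against 72 h (0; 28.9%), 2 for 120 h against 96 h (1; 17.8%) and 9 for 120 h against 0 h (4; 52.2%), and 23 of the 6 h steps (1; 8.33%). With both 96 h libraries left out, the numbers were 3, 4, 2 and 5 for the first 4 of these comparisons, 8 for 120 h against 0 h and 5 steps. Quantile normalization and scaling by counted reads each called 2 genes for 6 h against 0 h (22.3% and 27.9% of all genes). Each called 0 for 120 h against 96 h (2.70% and 1.71%) and 2 steps (1.49% and 1.85%). Scaling by counted reads shifted the median of all genes by -0.219 for 6 h against 0 h, -0.162 for 24 h against 0 h, 0.148 for 72 h against 48 h and 0.173 for 120 h against 48 h. Leaving out 1 library gave 0 to 1 genes for 24 h against 0 h, 0 to 2 for 96 h against 72 h, 0 to 2 for 120 h against 96 h and 2 for 120 h against 0 h, and 5 to 11 steps without a 96 h library.

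The letters A and B were not taken to pair the libraries, since over 210 pairs of time points the deviations of libraries with one letter had a mean correlation of 0.08 (from -0.474 to 0.598), with 68.6% of the pairs positive and 47.1% above 0.1. Single genes still leaned to a letter: B was above A at 18 of the 21 time points for Utf1 and Dppa2, at 17 for Dppa4 and at 4 for Sall4. With the letter as a replicate block, 2 genes were called for 6 h against 0 h (30.0% of all genes), 2 for 48 h against 24 h (10.1%), 5 for 72 h against 48 h (11.7%), and 2 steps (2.13% of all gene steps). The genes it added were Nanog at 6 h (adjusted p = 5.88e-05), Tdh for 48 h against 24 h (9.42e-05), Dppa2 (7.57e-05) and Dppa4 (4.67e-05) for 72 h against 48 h, and L1td1 for 120 h against 0 h (6.61e-05, limma).

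The changes of sign, all in values that were not called, were these. For 6 h against 0 h, Pou5f1 was at -0.146 under quantile normalization and -0.0399 under scaling by counted reads. For 72 h against 48 h, Sall4 was at 0.108 and 0.0183 under the same settings, and between -0.344 and 0.0846 with 1 library left out. Sox2 in 120 h against 48 h was at 0.305 and 0.168 under them and 0.0218 under median-of-ratios scaling, and between -0.0444 and 0.0348 with 1 library left out. The other ranges with 1 library left out were, for 96 h against 72 h, -0.849 to 0.108 for Pou5f1, -0.199 to 0.230 for Sall4, -0.764 to 0.111 for Utf1, -1.62 to 0.360 for Dppa2 and -0.597 to 0.136 for Dppa4. For 120 h against 96 h they were -0.473 to 0.0647 for Nanog, -0.0222 to 0.541 for Utf1, -0.830 to 1.15 for Dppa2, -0.279 to 0.455 for Dppa4, -0.969 to 0.442 for L1td1 and -0.0889 to 1.58 for Tdh. Sall4 in 120 h against 0 h ranged from -0.0035 to 0.170. The ends of these ranges came from leaving out 96 h A or 96 h B, other than those of Sall4, the upper and lower ends of Utf1 in 96 h against 72 h (72 h A and 72 h B) and those of Sox2. The cause was not tested. With 2 cultures a time point, the spread is shared over all time points, and a lone culture is assumed to vary like the others.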
